A study of Mus musculus with 12 samples.

Results

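Complement is a cascade of plasma and tissue proteins, and 9 of its genes were followed here through mouse brain hemispheres with and without an ischaemic stroke: the 3 chains of C1q (C1qa, C1qb and C1qc), the components C4b, C3 and Cfb, the receptors C3ar1 and C5ar1, and the inhibitor Serping1. They were taken by symbol from the deposited count table, where they are 9 of 20347 gene entries, and all 9 passed the filter on low counts. The 12 bulk RNA-seq libraries, each a pool of 2 mice, form 4 groups of 3: ipsilateral (IL, stroke) hemispheres of Lama4-/- mice, IL hemispheres of wild-type (WT) mice, contralateral (CL) hemispheres of Lama4-/- mice and CL hemispheres of WT mice. IL and CL libraries of a genotype carry the same pool numbers and were taken as hemispheres of the same mice. Lama4-/- mice lack the laminin alpha 4 chain, a part of the basement membrane around blood vessels. All mice were 12-week-old males, and in all of them the left middle cerebral artery was blocked with a filament for 60 min before 24 h of reperfusion, so the CL hemispheres come from operated animals and not from untouched ones. Brains were cleared of blood by PBS perfusion, hemispheres were processed without olfactory bulb and cerebellum, and the labels describe a washing step meant to take out remaining blood with its immune cells. Levels are reads per 1000000 counted reads of the library, scaled by TMM (CPM; TMM is a factor per library that evens out differences in composition), and means are given with the SD over 3 libraries.

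In the classical pathway, C1q binds to a surface such as an antibody complex or a dying cell and starts a chain of proteases that cleave C4 and then C3. Cfb forms the protease of the alternative pathway together with a fragment of C3. Cleavage of C3 and C5 releases the small peptides C3a and C5a, whose receptors are encoded by C3ar1 and C5ar1 and sit on myeloid cells. Serping1 encodes the C1 inhibitor, which blocks the proteases that are bound to C1q. In the mouse brain, microglia are the main source of C1q, and C1q and C3 are known for marking synapses for removal.

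The promoters of 5 of the 9 genes were present in the RefSeq table used here (build GRCm38.p6), and they are shown because all 5 of these genes were higher in the stroke hemisphere. Each sequence is the 250 bases before the RefSeq start, read along the gene, at chr4:136886201-136886450 (C1qb), chr4:136892915-136893164 (C1qc), chr17:57228137-57228386 (C3), chr6:122856158-122856407 (C3ar1) and chr7:16259339-16259588 (C5ar1), all on the minus strand. Capitals mark matches to the motifs described after the sequences.
C1qb: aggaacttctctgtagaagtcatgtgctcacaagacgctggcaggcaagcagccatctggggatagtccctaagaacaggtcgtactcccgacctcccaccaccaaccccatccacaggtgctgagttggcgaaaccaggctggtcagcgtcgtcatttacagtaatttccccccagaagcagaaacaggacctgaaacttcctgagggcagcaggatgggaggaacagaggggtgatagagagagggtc
C1qc: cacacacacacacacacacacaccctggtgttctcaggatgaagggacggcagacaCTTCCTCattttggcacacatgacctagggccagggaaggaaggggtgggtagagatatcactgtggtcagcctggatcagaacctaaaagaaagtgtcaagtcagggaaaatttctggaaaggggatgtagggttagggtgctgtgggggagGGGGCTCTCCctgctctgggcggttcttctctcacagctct
C3: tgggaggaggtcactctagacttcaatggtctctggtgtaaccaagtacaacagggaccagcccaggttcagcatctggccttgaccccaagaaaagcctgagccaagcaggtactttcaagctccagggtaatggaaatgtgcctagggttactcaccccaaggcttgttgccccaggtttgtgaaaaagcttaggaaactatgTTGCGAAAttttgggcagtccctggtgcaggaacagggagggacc
C3ar1: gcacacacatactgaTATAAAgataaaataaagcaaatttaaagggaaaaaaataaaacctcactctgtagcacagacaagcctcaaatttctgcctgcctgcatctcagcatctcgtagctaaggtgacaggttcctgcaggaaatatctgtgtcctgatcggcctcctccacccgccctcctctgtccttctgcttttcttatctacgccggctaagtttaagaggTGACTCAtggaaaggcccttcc
C5ar1: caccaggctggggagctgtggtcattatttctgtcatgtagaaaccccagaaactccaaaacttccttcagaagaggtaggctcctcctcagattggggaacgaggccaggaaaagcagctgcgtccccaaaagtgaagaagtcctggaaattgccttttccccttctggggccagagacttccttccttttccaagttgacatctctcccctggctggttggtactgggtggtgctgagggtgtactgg
The letters searched were GAGGAAG (PU.1, a myeloid factor), TGANTCA (AP-1), TTGCNNAA (C/EBP) and TTCNNNGAA (STAT) on both strands, the NF-kappaB and IRF motifs on both strands, and TATAAA on the gene's own strand. C1qc held a PU.1 match on the opposite strand, written CTTCCTC, at positions -194 to -188 counted from the start, and an NF-kappaB match at -41 to -32. C3 held a C/EBP match, TTGCGAAA, at -45 to -38. C3ar1 held an AP-1 match, TGACTCA, at -22 to -16 and a TATAAA match far upstream at -235 to -230. No marked match overlaps another, and the windows of C1qb and C5ar1 held none of these motifs. Among all 32851 promoters of the table, 10.6% held the PU.1 letters, 7.25% the NF-kappaB motif, 9.56% the C/EBP letters, 6.75% the AP-1 letters, 7.59% TATAAA, 7.02% the STAT letters and 2.98% the IRF motif. The matches describe these windows and are not evidence of binding.

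In the GENCODE M21 annotation of mm10, the build that the submitters' processing notes name, C1qb, C1qc and C1qa lie side by side on the minus strand of chromosome 4, from base 136880129 to 136898803, with gaps of 3.62 kb and 2.85 kb between them. C4b (chr17:34728380-34743882) and Cfb (chr17:34856374-34862518) lie 112 kb apart, and C3 (chr17:57203970-57228136) is farther along the same chromosome. C3ar1 is at chr6:122847138-122856161, C5ar1 at chr7:16246743-16259540 and Serping1 at chr2:84765387-84775444, and all 9 genes are protein-coding. On the minus strand, C1qc begins at base 136893065 and C5ar1 at 16259540, so large parts of their promoter windows lie inside these annotated genes. The NF-kappaB match of C1qc lies in that part, and the C3ar1 window overlaps its gene by a few bases. The counts of C4b and Cfb are uncertain. C4a, its near copy, holds 35.2% of the 50-base windows of the longest C4b transcript, and the annotated gene Gm20547 covers 79.5% of the exon bases of Cfb on the same strand. The other 7 genes share no 50-base window with any other annotated gene.

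Total counts ran from 27537167 to 44113824 per library. Lama4 averaged 0.533 ± 0.292 CPM in IL Lama4-/- and 14.7 ± 0.176 CPM in IL WT hemispheres, and 0.285 ± 0.0697 CPM in CL Lama4-/- and 9.18 ± 1.67 CPM in CL WT hemispheres; the targeted gene was low in every library labelled Lama4-/-. As a check of the tissue, the summed level of 6 neuronal markers was 4764 to 5771 CPM in IL Lama4-/-, 5319 to 5473 CPM in IL WT, 5590 to 6343 CPM in CL Lama4-/- and 5926 to 6471 CPM in CL WT hemispheres. In whole hemispheres, a change in the number of cells of a type and a change in RNA per cell cannot be told apart. The library kit in the labels is one for single cells that reads transcript 3' ends, although each column is a bulk library, and which kit was used is not settled here.

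The first question was how the complement genes responded to stroke within each genotype. In Lama4-/- mice 8 of the 9 genes rose in the IL hemisphere, against 12.8% of the 15351 genes tested that rose and 23.3% that changed in either direction; none fell, against 10.5% of all genes. In WT mice 8 of the 9 rose, against 9.91% of all genes tested that rose and 15.4% that changed in either direction; none fell, against 5.47% of all genes. The exception in both genotypes was Cfb. The same 8 genes had every IL library above every CL library in both genotypes, which held for 17.9% of the tested genes in Lama4-/- and 21.2% in WT mice. The median log2 fold change of the 9 genes was 0.81 in Lama4-/- and 0.93 in WT mice, beside -0.01 and 0.01 over all genes tested. Changes were tested with edgeR's quasi-likelihood test on all 12 libraries, Benjamini-Hochberg adjusted over all genes, and called at an adjusted p under 0.05. That test took the hemispheres of a pool as independent libraries. All 8 calls in Lama4-/- held when any 1 of the 6 Lama4-/- libraries was left out. Of the 9 genes, only 6 to 7 were called in WT mice when any 1 of the 6 WT libraries was left out. Over the whole table those WT runs called 1347 to 1740 genes. The calls lost were those of C3 and Serping1. In WT mice the number of genes called over the whole table was 3608 with the pool as a block, against 2361 without it.

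**Figure D1:**
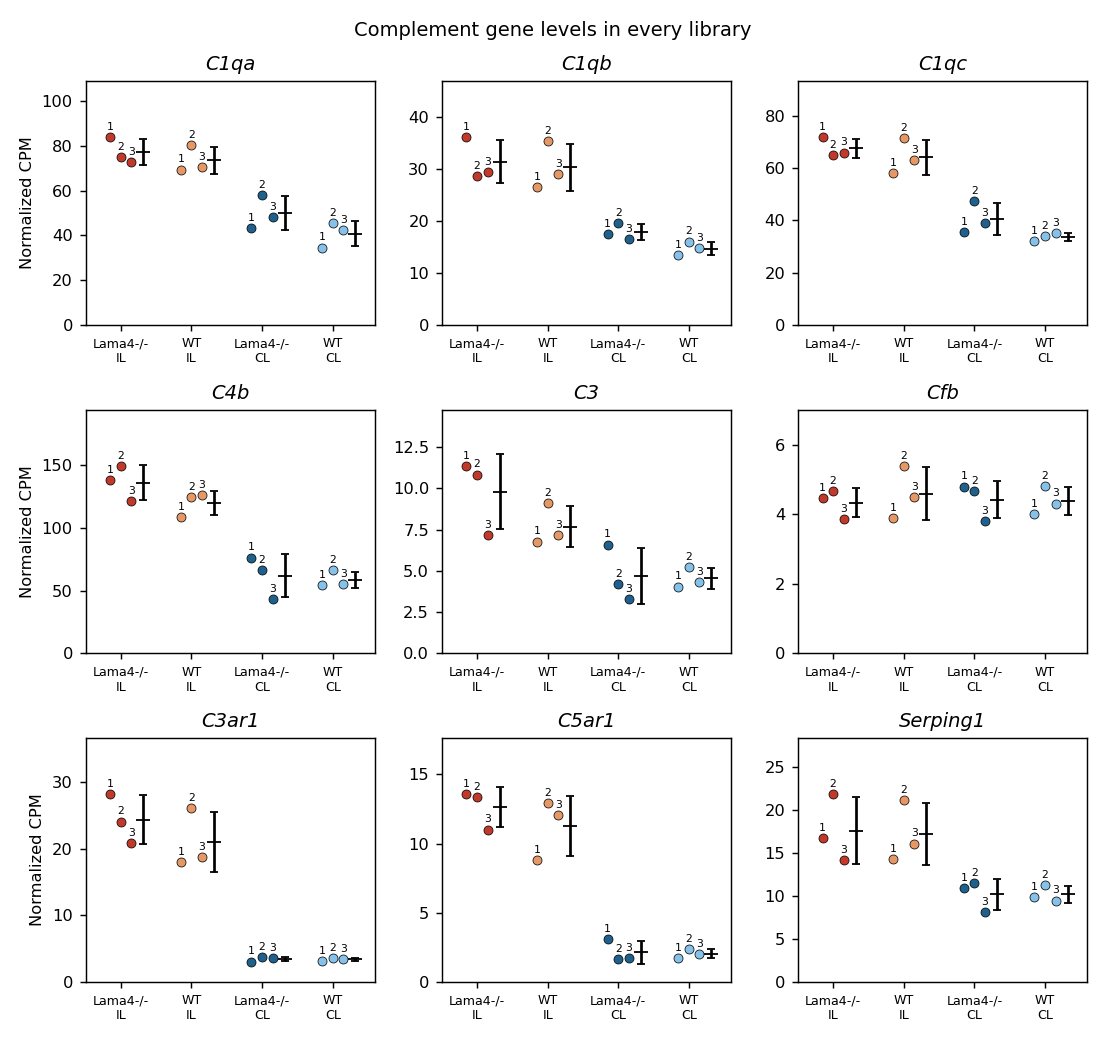
Level of each complement gene (normalized CPM, linear axis from 0) in the 12 libraries. Points are libraries, labelled with their replicate number, in IL Lama4-/-, IL WT, CL Lama4-/- and CL WT hemispheres; bars are mean ± SD (n = 3). In 8 panels each IL group lies above the CL group of its genotype, and in the Cfb panel all 4 groups overlap.

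The 3 C1q chains form 1 protein, the recognition unit of the classical pathway, and their transcripts rose by similar factors. C1qa had 83.8, 75.1 and 72.8 CPM in IL Lama4-/- libraries, against 43.1, 58.0 and 48.2 CPM in CL Lama4-/- libraries. In WT mice C1qa had 69.4, 80.4 and 70.5 CPM in IL libraries, against 34.5, 45.4 and 42.3 CPM in CL libraries. Every IL library was above every CL library in both genotypes, with the narrowest gap between IL replicate 3 and CL replicate 2 of Lama4-/- mice. The log2 fold change of C1qa was 0.63 ± 0.12 (SE) in Lama4-/- mice (adjusted p = 0.00204, edgeR's quasi-likelihood test) and 0.85 ± 0.12 in WT mice (adjusted p = 0.000405).

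C1qb had 36.1, 28.6 and 29.4 CPM in IL Lama4-/- libraries, against 17.5, 19.5 and 16.4 CPM in CL Lama4-/- libraries. The WT values of C1qb were 26.5, 35.3 and 29.1 CPM in IL libraries, against 13.3, 15.99 and 14.7 CPM in CL libraries. IL and CL libraries did not overlap in either genotype, and the log2 fold change was 0.81 ± 0.12 in Lama4-/- (adjusted p = 0.000436, edgeR) and 1.05 ± 0.12 in WT mice (adjusted p = 0.000117). C1qc had 71.7, 65.0 and 65.9 CPM in IL Lama4-/- libraries, against 35.3, 47.3 and 38.9 CPM in CL Lama4-/- libraries. In WT mice C1qc stood at 58.0, 71.3 and 63.1 CPM in IL libraries, against 31.98, 33.8 and 35.1 CPM in CL libraries. Here too the hemispheres were apart in both genotypes, with log2 fold changes of 0.74 ± 0.10 in Lama4-/- (adjusted p = 0.000262, edgeR) and 0.93 ± 0.10 in WT mice (adjusted p = 7.62e-05).

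The chains kept similar shares of the C1q transcripts. Of the summed CPM of the 3 chains, C1qa made up 43.0% to 47.7%, C1qc 35.5% to 40.1% and C1qb 15.6% to 18.9% over the 12 libraries. The summed C1q level was 168 to 192 CPM in IL Lama4-/-, 154 to 187 CPM in IL WT, 95.9 to 125 CPM in CL Lama4-/- and 79.8 to 95.2 CPM in CL WT hemispheres. The summed level of 8 microglial markers moved the same way by less, at 359 to 398, 347 to 398, 265 to 333 and 234 to 304 CPM in the same 4 groups. Its members did not move together. In Lama4-/- mice Fcrls rose while P2ry12 and Siglech fell, and in WT mice Fcrls rose while Siglech fell. The C1q sum per unit of the microglial sum was 0.422 to 0.509 in IL Lama4-/- hemispheres, against 0.311 to 0.389 in CL Lama4-/- hemispheres. In WT mice this ratio was 0.409 to 0.540 in IL hemispheres, against 0.277 to 0.407 in CL hemispheres, a gap that is small beside the spread within each group. The markers of border-associated macrophages, another C1q-bearing cell type, summed to 28.6 to 47.6 CPM in IL Lama4-/-, 32.9 to 55.5 CPM in IL WT, 16.8 to 19.99 CPM in CL Lama4-/- and 19.3 to 22.2 CPM in CL WT hemispheres, and 4 of its 6 markers rose in each genotype. Over all genes tested, 12.8% rose in Lama4-/- and 9.91% in WT mice. The part of these cell types in the C1q values was not tested.

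**Figure D2:**
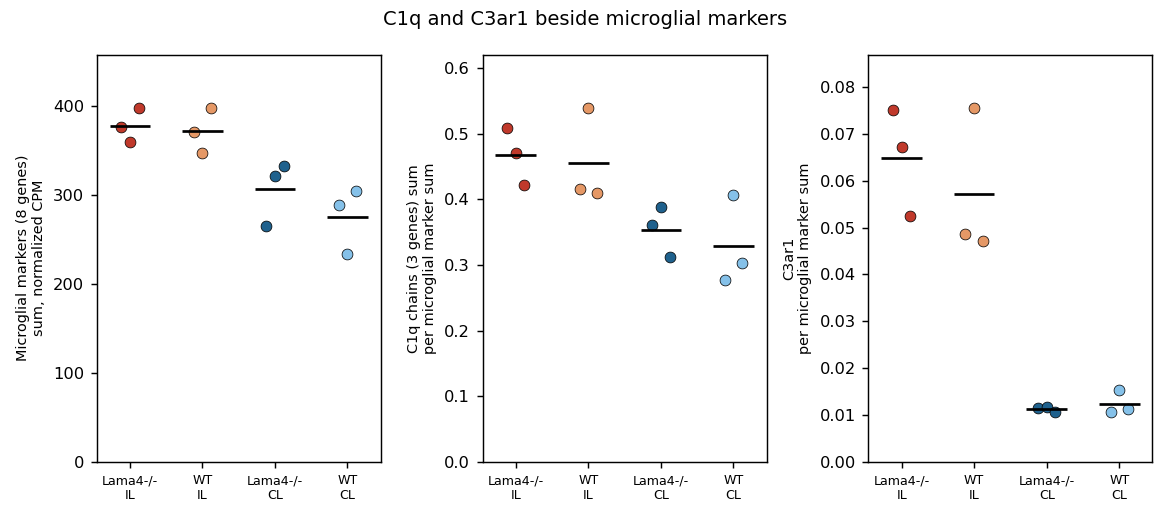
C1q and C3ar1 beside microglial markers in the 4 groups, IL Lama4-/-, IL WT, CL Lama4-/- and CL WT. Left, summed level of 8 microglial markers (normalized CPM); middle, summed level of the 3 C1q chains divided by that sum; right, C3ar1 divided by that sum; points are libraries, lines are means (n = 3) and axes start at 0. IL libraries lie above CL libraries of their genotype in the middle panel, and far above them in the right panel.

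Downstream of C1q, C4b encodes the C4 component that C1s cleaves, and it rose in both genotypes. C4b stood at 137.9, 149.7 and 121.3 CPM in IL Lama4-/- libraries, against 76.4, 66.4 and 43.2 CPM in CL Lama4-/- libraries. The WT libraries had 108.8, 124.4 and 126.3 CPM of C4b in IL hemispheres, against 54.2, 66.2 and 55.4 CPM in CL hemispheres. No IL library came near a CL one, and CL replicate 3 was the low library of its Lama4-/- group. The log2 fold change was 1.13 ± 0.17 in Lama4-/- (adjusted p = 0.000646, edgeR) and 1.03 ± 0.17 in WT mice (adjusted p = 0.0017), with C4a reads a possible part of both values.

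C3, on which all complement pathways meet, also rose in both genotypes. Its WT call rests on a thin margin in the test without the pool as a block. C3 had 11.4, 10.8 and 7.18 CPM in IL Lama4-/- libraries, against 6.59, 4.18 and 3.30 CPM in CL Lama4-/- libraries. In WT mice the C3 values were 6.78, 9.12 and 7.16 CPM in IL libraries, against 4.04, 5.24 and 4.33 CPM in CL libraries. The groups did not overlap, but the lowest IL Lama4-/- library was only 1.09 times the highest CL one. C3 rose by 1.06 ± 0.24 on the log2 scale in Lama4-/- (adjusted p = 0.00638, edgeR) and by 0.76 ± 0.24 in WT mice (adjusted p = 0.0472). The WT call ended, in edgeR, with no filter on low counts (adjusted p = 0.0533) and without any 1 of the 6 WT libraries: 0.0668 without IL replicate 1, 0.156 without IL 2, 0.0784 without IL 3, 0.138 without CL 1, 0.0673 without CL 2 and 0.142 without CL 3. With the pool as a block it held (adjusted p = 0.00222), and the IL over CL ratio of C3 was alike in the 3 WT pools, at 1.68, 1.74 and 1.65, while the Lama4-/- pools gave 1.73, 2.59 and 2.18.

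Cfb, the protease of the alternative pathway, was the gene with no call. Cfb had 4.47, 4.66 and 3.87 CPM in IL Lama4-/- libraries, against 4.80, 4.66 and 3.81 CPM in CL Lama4-/- libraries. The WT values of Cfb were 3.90, 5.40 and 4.50 CPM in IL libraries, against 4.02, 4.83 and 4.31 CPM in CL libraries. All 4 groups overlapped, and each pool had nearly the same level in both hemispheres. The log2 fold change was -0.03 in Lama4-/- mice, with a 95% interval of -0.36 to 0.29 (adjusted p = 0.896, edgeR), and its sign turned without TMM factors (0.05). In WT mice it was 0.07, with an interval of -0.25 to 0.39 (adjusted p = 0.805, edgeR). The overlap with Gm20547 leaves this count uncertain.

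The receptors of C3a and C5a rose most. C3ar1, the C3a receptor, had 28.2, 24.1 and 20.9 CPM in IL Lama4-/- libraries, against 3.04, 3.75 and 3.50 CPM in CL Lama4-/- libraries. In WT mice C3ar1 had 18.0, 26.2 and 18.8 CPM in IL libraries, against 3.06, 3.58 and 3.402 CPM in CL libraries. The CL values lay close together in both genotypes, and the lowest IL library was at least 5.03 times the highest CL one in either genotype. C3ar1 was 7.11-fold higher in IL hemispheres of Lama4-/- mice (95% interval 5.57 to 9.08, adjusted p = 3.2e-07, edgeR) and 6.27-fold higher in those of WT mice (4.91 to 8.02, adjusted p = 1.39e-06). By log2 fold change it ranked 123 of 15351 tested genes in Lama4-/- and 107 in WT mice.

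C5ar1, the C5a receptor, had 13.6, 13.4 and 11.0 CPM in IL Lama4-/- libraries, against 3.06, 1.63 and 1.68 CPM in CL Lama4-/- libraries. The WT libraries held 8.83, 12.9 and 12.1 CPM of C5ar1 in IL hemispheres, against 1.73, 2.38 and 1.98 CPM in CL hemispheres. Again no libraries overlapped, and CL replicate 1 was the highest of the Lama4-/- CL group. C5ar1 was 5.91-fold higher in IL hemispheres of Lama4-/- mice (95% interval 4.23 to 8.26, adjusted p = 9.95e-06, edgeR) and 5.59-fold higher in those of WT mice (3.98 to 7.85, adjusted p = 2.55e-05). By pool the ratio of C5ar1 was 4.43, 8.17 and 6.54 in Lama4-/- and 5.09, 5.44 and 6.10 in WT mice.

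Both receptors are carried by microglia, macrophages and neutrophils. C3ar1 per unit of the microglial marker sum averaged 0.0649 in IL Lama4-/-, 0.0571 in IL WT, 0.0112 in CL Lama4-/- and 0.0124 in CL WT hemispheres. That sum mixes markers that rose with markers that fell, so the ratio is not a level per cell. The 8 neutrophil markers summed to 9.76, 14.8 and 1.81 CPM in the 3 IL Lama4-/- libraries, to 1.74 to 3.35 CPM in IL WT, 1.10 to 1.87 CPM in CL Lama4-/- and 0.932 to 1.66 CPM in CL WT hemispheres. The same 3 IL Lama4-/- libraries, in the same order, had 28.2, 24.1 and 20.9 CPM of C3ar1 and 13.6, 13.4 and 11.0 CPM of C5ar1. Of the neutrophil markers, 3 of the 4 tested rose in Lama4-/- and 0 in WT mice, against 12.8% and 9.91% of all genes tested. Ly6g was at 0 in every CL WT library. The 6 monocyte markers summed to 189 to 250 CPM in IL Lama4-/-, 174 to 192 CPM in IL WT, 138 to 143 CPM in CL Lama4-/- and 139 to 161 CPM in CL WT hemispheres. Most of that sum is Fn1 and Vcan, which other cells also express. Of the 4 monocyte markers tested, 3 rose in Lama4-/- (Ccr2, Chil3 and Fn1) and 1 in WT mice (Fn1), against the same shares of all genes. None of the neutrophil or monocyte markers tested was called between genotypes in either hemisphere. None was called in the interaction either, where no gene of 15351 was. Ccr2 averaged 2.18 CPM in IL Lama4-/-, 0.920 CPM in IL WT, 0.282 CPM in CL Lama4-/- and 0.426 CPM in CL WT hemispheres. Chil3 averaged 3.33 CPM in IL Lama4-/-, 0.594 CPM in IL WT, 0.196 CPM in CL Lama4-/- and 0.210 CPM in CL WT hemispheres, while Ly6c2 stood at 0 in CL WT hemispheres and at most at 0.0359 CPM on average in the others. The part of leukocytes in the receptor values was not tested.

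Serping1, the inhibitor of the C1 proteases, also rose. Serping1 had 16.7, 21.8 and 14.2 CPM in IL Lama4-/- libraries, against 10.9, 11.5 and 8.14 CPM in CL Lama4-/- libraries. In WT mice Serping1 had 14.3, 21.2 and 16.1 CPM in IL libraries, against 9.82, 11.3 and 9.44 CPM in CL libraries. Replicate 2 was the highest of each of the 4 groups, and IL and CL libraries did not overlap within a genotype. The log2 fold change was 0.78 ± 0.18 in Lama4-/- (adjusted p = 0.00779, edgeR) and 0.76 ± 0.18 in WT mice (adjusted p = 0.0137). The WT call ended without IL replicate 2 (adjusted p = 0.0556, edgeR) and without CL replicate 3 (0.0634). With the pool as a block it held (adjusted p = 0.0005).

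**Figure D3:**
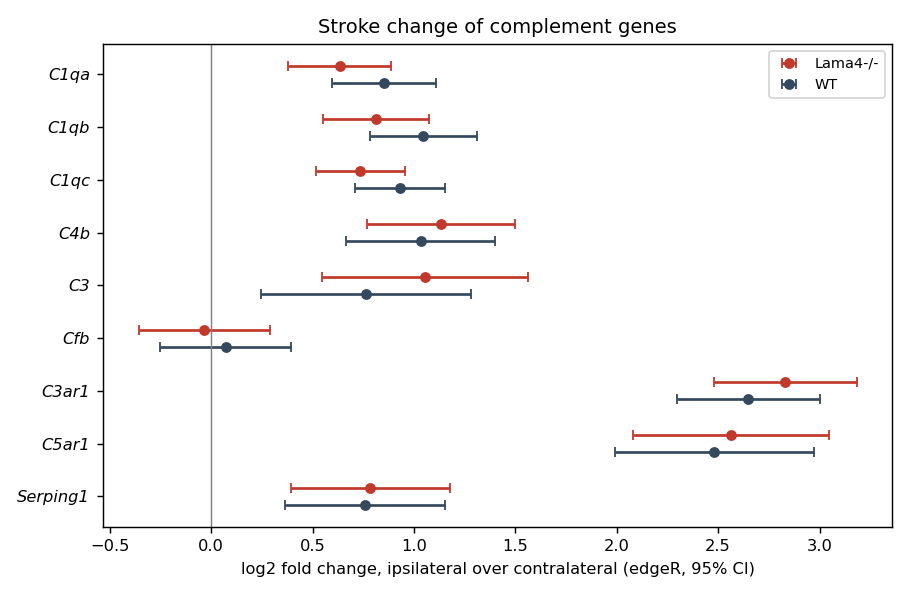
Stroke change of each complement gene (log2 fold change, IL over CL) in Lama4-/- and WT mice. Points are edgeR estimates on 12 libraries and bars 95% intervals. C3ar1 and C5ar1 lie between 2.48 and 2.83, the other 6 called genes between 0.63 and 1.13, and both intervals of Cfb span 0.

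The next question was whether the loss of laminin alpha 4 changed these genes in the stroke hemisphere. None of the 9 genes was called between IL Lama4-/- and IL WT libraries, where 0.00658% of 15208 tested genes passed, a share that is 1 gene, Lama4 itself. At an unadjusted p under 0.05 there were 531 genes in all and 0 of the 9. The median log2 fold change of the 9 was 0.07, beside -0.00 over all genes tested. C4b averaged 136 ± 14.3 CPM in IL Lama4-/- and 119.8 ± 9.60 CPM in IL WT hemispheres, a log2 fold change of 0.19 with a 95% interval of -0.03 to 0.40. C3 averaged 9.80 ± 2.28 CPM in IL Lama4-/- and 7.68 ± 1.26 CPM in IL WT hemispheres, a log2 fold change of 0.36 with an interval of -0.08 to 0.79. The libraries of the genotypes overlapped for all 9 genes (3.85% of tested genes had every Lama4-/- library above every WT library), and the adjusted p in edgeR's quasi-likelihood test was 0.989 or more for each. C1qa, C1qb and C1qc differed by 0.07, 0.05 and 0.07 on the log2 scale, with intervals that reach at most 0.34, and Serping1 by 0.03 (-0.40 to 0.47). C3ar1 differed by 0.22 (-0.16 to 0.60), C5ar1 by 0.17 (-0.18 to 0.52) and Cfb by -0.08 (-0.45 to 0.28). These intervals, and not the adjusted p, give the size of difference that 3 pools a group leave possible.

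In the CL hemisphere, which answers the same question away from the stroke, none of the 9 genes was called either, where 0.0134% of 14958 tested genes passed (2 genes). The 3 C1q chains had the largest differences of the 9, and all 3 were higher in Lama4-/- mice. C1qa averaged 49.8 ± 7.61 CPM in CL Lama4-/- and 40.7 ± 5.64 CPM in CL WT hemispheres, and the libraries overlapped. C1qb averaged 17.8 ± 1.57 CPM in CL Lama4-/- and 14.7 ± 1.32 CPM in CL WT hemispheres, and C1qc averaged 40.5 ± 6.17 CPM in CL Lama4-/- and 33.6 ± 1.56 CPM in CL WT hemispheres. For C1qb and C1qc the libraries did not overlap, by 1.03 and 1.01 times from the lowest Lama4-/- to the highest WT library, which held for 8.35% of tested genes in that direction. The log2 fold changes were 0.28 ± 0.13, 0.27 ± 0.10 and 0.26 ± 0.10 for C1qa, C1qb and C1qc, each with an adjusted p of 0.51 in edgeR's quasi-likelihood test. Their unadjusted p-values in edgeR were 0.0528, 0.0216 and 0.0317, beside 1422 of 14958 genes at an unadjusted p under 0.05. In the authors' deposited table the same log2 fold changes were 0.28, 0.27 and 0.26, with adjusted p-values of 0.387, 0.412 and 0.372. Of the other 6 genes, the log2 fold changes lay between -0.00 (Serping1) and 0.08 (C5ar1), and the libraries overlapped in each. Microglial markers summed to 265 to 333 CPM in CL Lama4-/- and 234 to 304 CPM in CL WT hemispheres, and the C1q sum per unit of that sum overlapped, at 0.311 to 0.389 in CL Lama4-/- and 0.277 to 0.407 in CL WT hemispheres.

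**Figure D4:**
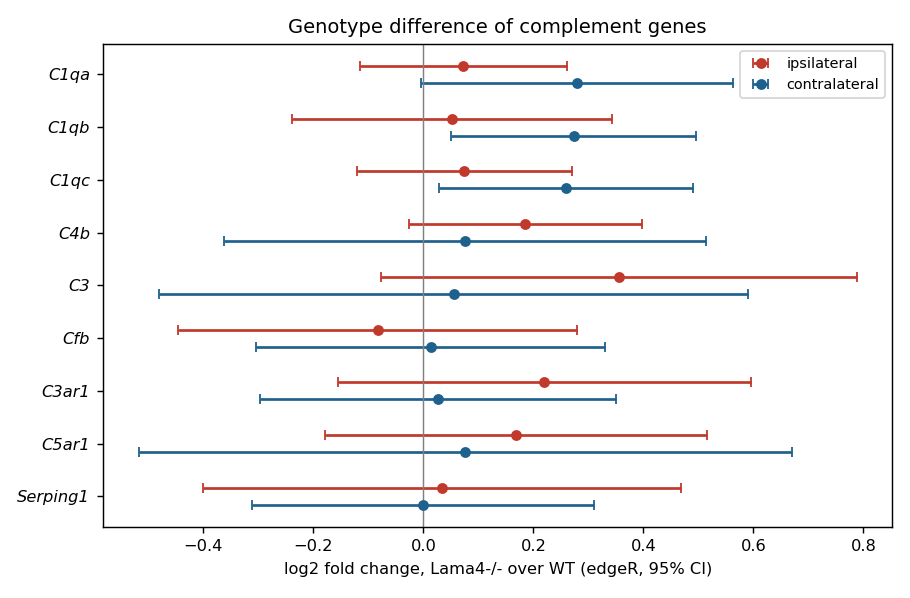
Genotype difference of each complement gene (log2 fold change, Lama4-/- over WT) in IL and CL hemispheres. Points are edgeR estimates on the 6 libraries of a hemisphere and bars 95% intervals. The intervals of C1qb and C1qc in CL hemispheres lie above 0, from 0.05 and 0.03 upwards, and the other 16 span 0.

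Whether the stroke change itself differed between genotypes was tested as an interaction, the log2 stroke change in Lama4-/- minus that in WT mice. No gene of 15351 was called by edgeR's quasi-likelihood test (0.0%), by DESeq2 or by limma-voom, and of the 244 genes under an unadjusted 0.05 in edgeR, 0 were among the 9. The C1q chains had the lowest values, C1qa -0.22 (95% interval -0.58 to 0.14), C1qb -0.23 (-0.60 to 0.14) and C1qc -0.20 (-0.51 to 0.12). C3 had the highest value, 0.29, with a wide interval of -0.43 to 1.01. C3ar1 stood at 0.18 (-0.31 to 0.67), C4b at 0.10 (-0.41 to 0.61), C5ar1 at 0.08 (-0.61 to 0.77), Serping1 at 0.02 (-0.53 to 0.58) and Cfb at -0.10 (-0.56 to 0.35). The adjusted p was 1.00 for each in edgeR. Without CL WT replicate 2 the interaction called 1 gene, which was none of the 9.

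To compare levels between genes, CPM was divided by the length of each gene's exons in GENCODE M21 (CPM per kb), a scale that holds only if reads came from the whole transcript. In all 4 groups the order began with C1qa, C1qc, C1qb, C4b and Serping1. In IL Lama4-/- hemispheres these averaged 74.3 ± 5.58, 35.0 ± 1.89, 28.8 ± 3.78, 23.9 ± 2.51 and 7.56 ± 1.67 CPM per kb, and in CL WT hemispheres 39.2 ± 5.42, 17.4 ± 0.810, 13.5 ± 1.21, 10.3 ± 1.16 and 4.38 ± 0.417 CPM per kb. The lower end of the order differed between hemispheres. In IL hemispheres of both genotypes C3ar1 and C5ar1 came next, at 5.67 ± 0.858 and 4.92 ± 0.553 CPM per kb in Lama4-/- and 4.88 ± 1.05 and 4.39 ± 0.841 CPM per kb in WT mice. In CL hemispheres they were the last of the 9, at 0.797 ± 0.0841 and 0.828 ± 0.316 CPM per kb in Lama4-/- and 0.778 ± 0.0614 and 0.790 ± 0.126 CPM per kb in WT mice, under Cfb and C3. Neighbours whose libraries overlapped were C3ar1 and C5ar1 in all 4 groups, C3 and Cfb in both IL groups, C3 and C5ar1 in both CL groups, C1qb and C4b as well as Serping1 and C3ar1 in IL Lama4-/-, and C1qc and C1qb in IL WT hemispheres.

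Of 49 other complement genes on a list, 48 had an entry, 3 of them under a synonym (C5, Fcn1 and Fcn2), and C4a was not analysed here. In the stroke comparisons 34 of the 48 passed the filter on low counts. In Lama4-/- mice 8 of the 34 rose (among them C1ra, C1s1, Cr1l, Itgam, Itgax, Itgb2 and Cd93) and 4 fell (Vtn, Csmd3, Susd4 and Sez6), against 12.8% of all tested genes that rose and 10.5% that fell. In WT mice 6 rose (among them C1ra, Itgam, Itgax, Itgb2 and Cd93) and 2 fell (Csmd3 and Sez6), against 9.91% of all tested genes that rose and 5.47% that fell. The shares that fell are near those of all genes in both genotypes. Of the list, 0 were called between genotypes in either hemisphere. The median log2 fold change of the 34 was 0.11 in Lama4-/- and 0.22 in WT mice, lower than that of the 9 genes. C1ra, the protease that C1q activates, had 4.20, 3.81 and 2.70 CPM in IL Lama4-/- libraries, against 1.14, 1.37 and 0.928 CPM in CL Lama4-/- libraries, a log2 fold change of 1.63 ± 0.21 (adjusted p = 0.000165, edgeR). In WT mice C1ra had 2.56, 3.10 and 2.22 CPM in IL libraries, against 1.21, 1.55 and 1.47 CPM in CL libraries, a log2 fold change of 0.90 ± 0.21 (adjusted p = 0.0121, edgeR). C1ra thus had no overlap between hemispheres in either genotype. C1s1, the protease that cleaves C4, rose by 0.95 ± 0.24 in Lama4-/- mice (adjusted p = 0.0112, edgeR), and its log2 fold change of 0.70 ± 0.24 in WT mice was not called (0.0646) unless the pool was a block (0.0312).

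The receptor for cleaved C3 on myeloid cells, CR3, is made of Itgam and Itgb2. Itgam rose by 1.47 ± 0.24 on the log2 scale in Lama4-/- and 1.20 ± 0.24 in WT mice, and Itgb2 by 1.44 ± 0.19 in Lama4-/- and 1.13 ± 0.19 in WT mice, each with an adjusted p of 0.00642 or less in edgeR. Cr1l, a membrane regulator of C3 in mice, rose by 0.41 ± 0.09 in Lama4-/- (adjusted p = 0.00709, edgeR) and had 0.22 ± 0.09 in WT mice (0.131). Cfp, which stabilizes the alternative pathway protease, and C5, the source of C5a, were not called in either genotype, and Cfi and Cfd did not pass the filter on low counts. C2, which pairs with C4 and neighbours Cfb, had a log2 fold change of -0.56 in Lama4-/- (adjusted p = 0.0777, edgeR) and -0.38 in WT mice (0.284). With the pool as a block C2 fell in Lama4-/- mice (adjusted p = 0.00756, edgeR). C5ar2, the second C5a receptor, had -0.10 in Lama4-/- and 0.77 in WT mice, and only the block called the WT value (0.0257). The block also called C8g lower in Lama4-/- (0.0407) and Clu higher in WT mice (0.0323), both named after their values were seen, and no other list gene run with the block changed its stroke call; C5 and Fcn1 were not run with it. Sez6 and Csmd3, which are made by neurons and carry complement-control domains, fell by 0.46 and 0.29 in Lama4-/- and by 0.39 and 0.48 in WT mice, beside neuronal marker sums that overlapped between hemispheres in Lama4-/- and were lower in every IL than in any CL library in WT mice.

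Within a group, the 9 genes often ranked the libraries alike. IL WT replicate 1 was the lowest library of its group for all 9 genes and replicate 2 the highest for 8 of 9. CL WT replicate 1 was the lowest for 8 and replicate 2 the highest for 8. IL Lama4-/- replicate 3 was the lowest for 7, and CL Lama4-/- replicate 3 for 5. These orders were not counted over all genes, so they cannot be read as particular to the 9. Deviations from the group means, on the log2 CPM scale with a prior count of 2, fell into blocks, which were chosen after the values were seen. Among C1qa, C1qb, C1qc and C3ar1 the 6 pairs correlated at r = 0.76 to 0.86 over 12 libraries. Among C3, C4b, C5ar1, Cfb and Serping1 the 10 pairs had r = 0.53 to 0.91, with Cfb and Serping1 the closest pair. Between these sets the 20 pairs had r = -0.17 to 0.74, with a median of 0.38. The highest of these, C1qb with Cfb, was above several pairs within a set, so the sets are not cleanly apart. The 12 points share pools of mice across hemispheres and libraries across genes, so these r values describe this set of libraries.

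**Figure D5:**
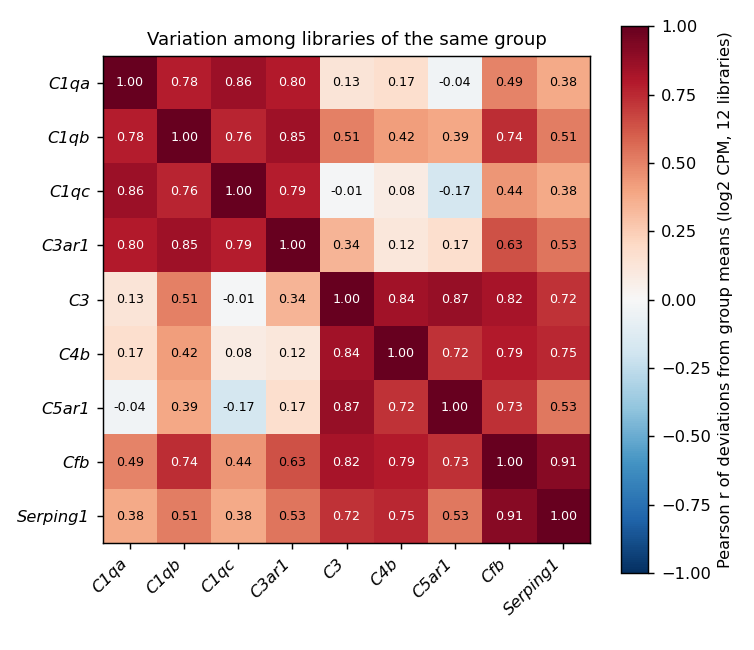
Pearson r between complement genes of the deviations from group means (log2 CPM, 12 libraries), from blue (-1) to red (1). C1qa, C1qb, C1qc and C3ar1 form one block (0.76 to 0.86) and C3, C4b, C5ar1, Cfb and Serping1 another (0.53 to 0.91). Pairs between the blocks run from -0.17 to 0.74, so the ranges overlap.

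Among 13872 other genes, the ones closest in pattern over the 12 libraries were ranked by Pearson's r of log2 CPM, a measure that includes the stroke change; for the deviations from group means alone, r lay between 0.75 and 0.97 for the genes named. For the mean of the C1q chains they were Ctsz, Lgmn and Tyrobp (r = 0.99 each), and for C3 they were Il1r1 (0.99), Slc43a3 (0.98) and Slc10a6 (0.97). C3ar1 was closest to Fcer1g (1.00), Plek (0.99) and Ucn2 (0.99), and C5ar1 to Lilrb4 (1.00), Gfap (0.99) and Bcl3 (0.99). C4b was closest to Ggta1 (0.99), Cd244 (0.99) and Msr1 (0.98), and Serping1 to Ifitm2 (0.98), Epha2 (0.97) and Ticam1 (0.97). Cfb, with no stroke change called, was closest to Hif3a (0.90), F3 (0.90) and Fkbp5 (0.88). Ctsz shows the C1q pattern, with 91.1, 79.7 and 80.1 CPM in IL Lama4-/-, 67.9, 81.2 and 71.9 CPM in IL WT, 38.6, 46.8 and 44.2 CPM in CL Lama4-/- and 33.2, 37.3 and 36.4 CPM in CL WT hemispheres. Its libraries did not overlap between hemispheres of a genotype, as for the C1q chains.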

How the data were processed

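Bulk RNA-seq of 12 libraries was analysed. The deposited table holds raw counts, not normalized. STAR 2.6.0 and featureCounts 1.6.4 are listed, on mm10, in the submitters' processing notes, beside FastQC 0.72, bcl2fastq and DESeq2. The sources used here do not state the counting strand or the gene annotation. The deposited log2 fold changes and p-values are the authors' own and were quoted once. Groups came from the labels, and 48 further per-library columns were not used.

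Analysis used R 4.3.3 and edgeR 4.0.16 (TMM, filterByExpr, robust quasi-likelihood F test, Benjamini-Hochberg over all genes tested, call under 0.05). Stroke changes and the interaction used all 12 libraries with 1 mean per group, and genotype differences the 6 libraries of a hemisphere. CPM are counts over the library total times its TMM factor. Alternatives were DESeq2 1.42.0, limma-voom (limma 3.58.1), no TMM, no filter, a filter of 1 CPM in 3 libraries, the replicate block, no robust step, other libraries in the fit and each library left out. The script was tested on simulated counts. Depth allowed 27537167 to 44113824 reads per library, and no libraries were duplicates (chi-square over degrees of freedom of at least 9.19). In the main tests, p-values measure the spread between the libraries of a group, each a pool of mice.

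The 9 genes, the lists and the motifs were chosen with earlier results of these data known. The named genes were the 9, Lama4, other complement genes called in a comparison or partners of a member, and the genes closest in pattern. Some genes of the lists are counted but not reported here by name. Library names give IL and CL of a genotype the same pool number. From these shared numbers the hemispheres were taken as paired by pool. Deviations of same-numbered libraries correlated at r = 0.11 to 0.34 within a genotype, and those of differently numbered ones at -0.25 to 0.03. Between genotypes r reached 0.35 (IL replicates 2 of Lama4-/- and WT mice), so the r values do not settle the pairing. Among the tests, only the replicate block used this pairing. The main stroke and interaction tests treated all libraries as independent. Across genotypes the numbers pair nothing.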

Additional observations from a re-analysis of the deposited data

How the results depend on the processing

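Of 252 alternative values for the stroke change of the 9 genes, 238 kept their direction and side of the threshold, 9 were no longer called (C3 and Serping1 in WT mice) and 5 turned sign, all of Cfb. All 8 genes were called in Lama4-/- mice under every alternative run, and 6 to 8 in WT mice. Of 423 values between genotypes or for the interaction, none was called and 32 turned sign. The replicate block by pool changed no stroke call of the 9 genes, called 3608 genes in WT mice, and, by number across genotypes where numbers pair nothing, 4 genes in IL and 121 in CL hemispheres; C1qa then had an adjusted p of 0.0598 in edgeR. Genes called between genotypes were 22 in IL and 17 in CL hemispheres with DESeq2, 1 in CL with limma-voom, and 3 in IL with all libraries in the fit. Leaving out single libraries gave 2286 to 3618 genes for stroke in Lama4-/- (2286 without IL replicate 1), 1347 to 1740 in WT (1561 without IL 2, 1485 without CL 2, 1347 without CL 3), 1 to 5 between genotypes in IL, 1 to 9 in CL, and 0 to 1 for the interaction. Without TMM, Cfb in Lama4-/- stroke was 0.053 and Serping1 between genotypes in CL 0.019; that Serping1 value was 0.011 with limma-voom and 0.00998 with all libraries. The log2 values that turned sign when 1 library was left out ranged, for stroke, from -0.13 to 0.047 (Cfb, Lama4-/-) and -0.060 to 0.18 (Cfb, WT); between genotypes in IL, from -0.061 to 0.17 (C1qb), -0.15 to 0.21 (Serping1) and -0.19 to 0.045 (Cfb); in CL, from -0.28 to 0.24 (C3), -0.11 to 0.27 (C4b), -0.30 to 0.26 (C5ar1), -0.055 to 0.10 (Cfb), -0.039 to 0.10 (C3ar1) and -0.089 to 0.13 (Serping1); and for the interaction from -0.16 to 0.20 (Serping1), -0.094 to 0.45 (C5ar1), -0.21 to 0.025 (Cfb) and -0.10 to 0.28 (C4b). The cause was not tested. With 3 pools a group, small differences between genotypes were not detectable.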

Other observations

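Fkbp5 and Hif3a, among the genes closest to Cfb in pattern, differed more between pools than between hemispheres. Fkbp5, a glucocorticoid-responsive gene, had 134, 109.8 and 69.5 CPM in IL Lama4-/-, 76.3, 176 and 81.5 CPM in IL WT, 133.5, 102 and 69.2 CPM in CL Lama4-/- and 74.3, 172.8 and 77.5 CPM in CL WT hemispheres. The same pool was highest in both hemispheres of each genotype, replicate 1 in Lama4-/- and replicate 2 in WT mice. Hif3a had 22.5, 25.3 and 12.5 CPM in IL Lama4-/-, 12.0, 33.0 and 16.2 CPM in IL WT, 29.3, 20.7 and 16.5 CPM in CL Lama4-/- and 15.3, 30.7 and 18.0 CPM in CL WT hemispheres, and replicate 2 was again far above the others in both WT groups. Deviations of Fkbp5 and Hif3a from the group means correlated with those of Cfb at r = 0.90 and 0.95 over 12 libraries, which share pools across hemispheres. Both genes were chosen for a high r with Cfb over these same libraries, so these values are not separate support.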
